A study of Mus musculus with 12 samples.

Results

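The genes described here encode RNA helicases and splicing proteins. Members were the protein-coding genes of the RefSeq annotation of the mouse assembly GRCm38.p6 whose symbol starts with Ddx or Dhx and a digit, or with Srsf, Hnrnp, Snrp, Sf3a, Sf3b or Rbm. This rule found 152 of 21900 protein-coding genes. The Y chromosome was left out of the hotspot lists, so Ddx3y, Rbm31y and Rbmy, on Y, were not examined, and 149 members of 21631 genes remained. They form 7 families: Ddx (36 genes), Dhx (16), Srsf (11), Hnrnp (21), Snrp (12), Sf3 (9, Sf3a and Sf3b together) and Rbm (44).

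Meiotic recombination begins with programmed DNA double-strand breaks, which fall in short intervals called hotspots. DMC1 is the meiotic recombinase that binds the single-stranded DNA at such breaks, and single-stranded DNA sequencing after DMC1 immunoprecipitation (DMC1-SSDS) maps them. In mice the methyltransferase PRDM9 directs most hotspots away from promoters, and ANKRD31 belongs to the proteins that form the breaks. The series compared hotspots of adult male Ankrd31 tm1Atot knockout mice with those of adult male C57BL/6JCrl wild type mice, in DNA of whole testis recovered with an antibody to DMC1. The sources used here do not give the background strain of the knockout, so strain and genotype cannot be told apart. Each genotype had 2 of the 12 samples in DMC1 and 1 deposited hotspot list, so no spread between animals could be measured and no p-value is given between genotypes. Samples of H3K4me3 chromatin and input DNA from mice of 13 days post-partum were not analysed here. The lists hold no expression values, so neither the tissue label nor the loss of Ankrd31 was checked in them.

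The knockout list held 22034 hotspots with 4203380 reads, and the wild type list 13480 hotspots with 4376692 reads. Strength is the read count of a hotspot minus its background, as deposited by the authors. Its median was 105 in the knockout list and 152 in the wild type list, and the weakest hotspot listed had a strength of 16 in the knockout and 18 in the wild type. Hotspots of the lists that overlapped are called shared, and the others knockout-only or wild-type-only. These names refer to the lists, since a weak hotspot can lie below the limit of a list.

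Most of these genes belong to pathways that every cell uses. RNA helicases of the DEAD-box (Ddx) and DEAH-box (Dhx) families use ATP to remodel RNA and RNA-protein complexes in splicing, ribosome assembly, export, translation and decay. The Snrp and Sf3 genes encode the core of the small nuclear ribonucleoproteins that recognise splice sites and the branch point. Srsf (SR) proteins, Hnrnp proteins and many Rbm proteins bind the transcript itself and favour or repress exons. Several members act in germ cells, among them Ddx4, the mouse Vasa homologue, and Ddx25, a testis helicase that spermatids need to develop.

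Hotspots were assigned to a gene end by a distance of at most 1 kb between their centre and the end. In the knockout list 65 of the 149 members had such a hotspot (43.6%, exact 95% binomial interval 35.5 to 52.0), beside 27.1% of all protein-coding genes. The wild type list had such a hotspot at 3 members (2.01%, 0.417 to 5.77), beside 1.99% of all protein-coding genes. The knockout hotspots were knockout-only at 62 members (41.6%, against 25.5% of all genes) and shared at 3 (2.01%, against 1.85%). No member had a wild-type-only hotspot at an end, which 0.296% of all genes had, and the interval for 0 of 149 members reaches 2.45%. Intervals cover counting error over genes, which are not replicates of a genotype. The knockout list is the longer, and its strongest 13480 hotspots, as many as the wild type list holds, left 41 members (27.5%) with a hotspot at an end, beside 16.0% of all genes.

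Every family had members with a knockout hotspot at an end, and the shares of the families lay within each other's intervals. Ddx had 18 of 36 (50%, 32.9 to 67.1) and Dhx 7 of 16 (43.8%, 19.8 to 70.1). Of the genes that act on the transcript, Srsf had 6 of 11 (54.5%, 23.4 to 83.3), Hnrnp 7 of 21 (33.3%, 14.6 to 57.0) and Rbm 19 of 44 (43.2%, 28.3 to 59.0). Among the core spliceosome genes Snrp had 4 of 12 (33.3%, 9.92 to 65.1) and Sf3 4 of 9 (44.4%, 13.7 to 78.8). Ddx, Hnrnp and Rbm had 1 member each in the wild type list and the other families had none, beside 1.99% of all genes. The smaller families therefore left wide intervals, and no order between families can be read from these shares. Beside the 27.1% of all genes, the intervals of Ddx and Rbm lay above that share and those of the other families held it. Rbm has 5 of the 7 members on X, and on autosomes it had 14 of 39 (35.9%, 21.2 to 52.8). That interval holds the 26.1% of autosomal genes, while the autosomal Ddx interval, 31.4 to 66.0, lies above it.

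**Figure D1:**
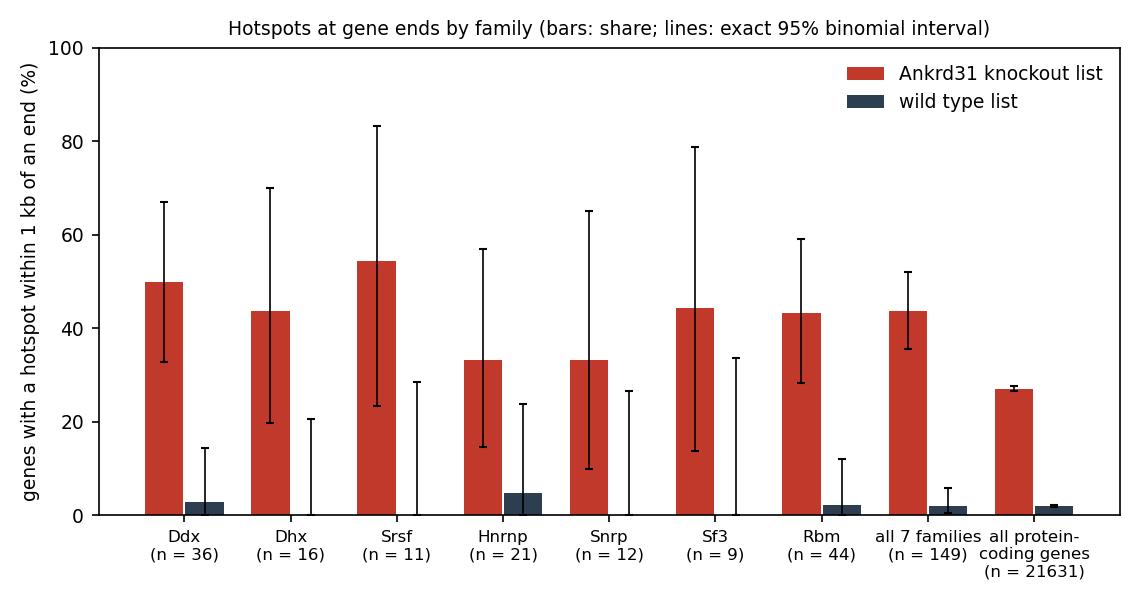
Share of genes with a hotspot centred within 1 kb of a gene end, in percent, for each family, for all 149 members and for all 21631 protein-coding genes. Bars are the Ankrd31 knockout list (red) and the wild type list (dark blue), and lines are exact 95% binomial intervals; the knockout bars of the families run from 33.3% to 54.5% and the highest wild type bar is 4.76%, in Hnrnp.

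On the X chromosome all 7 members had a knockout hotspot at an end (100%, 59.0 to 100), where 47.5% of all X genes had it. They are Ddx3x, Hnrnph2, Rbm3, Rbm10, Rbm41, Rbmx and Rbmx2. The hotspots were knockout-only at 6 of them (beside 40.3% of X genes) and shared at 1 (beside 7.66%). The wild type list had a hotspot at an end of 1 of the 7, beside 8.18% of X genes. On the autosomes 58 of 142 members (40.8%, 32.7 to 49.4) had a knockout hotspot at an end, beside 26.1% of autosomal genes. They were knockout-only at 56 members (beside 24.8% of autosomal genes) and shared at 2 (beside 1.58%). The wild type list had 2 autosomal members with such a hotspot, beside 1.70% of autosomal genes.

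The knockout hotspots lay at the start of the genes, where transcription begins, and few at the far end. Strand was known for 129 members from the RefSeq promoter table. Of these, 56 had a knockout hotspot at the start (43.4%, beside 26.2% of all genes of known strand) and 3 at the far end (2.33%, beside 1.90%). The wild type list had a hotspot at the start of 1 member (beside 0.747% of all genes) and at the far end of 2 (beside 1.14%). Another 7 knockout hotspots lay at ends of members whose strand was not known. The 56 knockout hotspots were centred a median of 150.5 bp downstream of the annotated start, from 510 bp upstream to 997 bp downstream. Of them 46 (82.1%) were downstream of it, against 67.6% of the knockout hotspots at the start of all genes, and 40 (71.4%) were within 250 bp, against 69.0%. From the start of a member to the nearest hotspot the median distance was 2367 bp in the knockout list and 46552 bp in the wild type list. For all genes of known strand it was 20800.5 bp in the knockout list and 63440 bp in the wild type list.

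**Figure D2:**
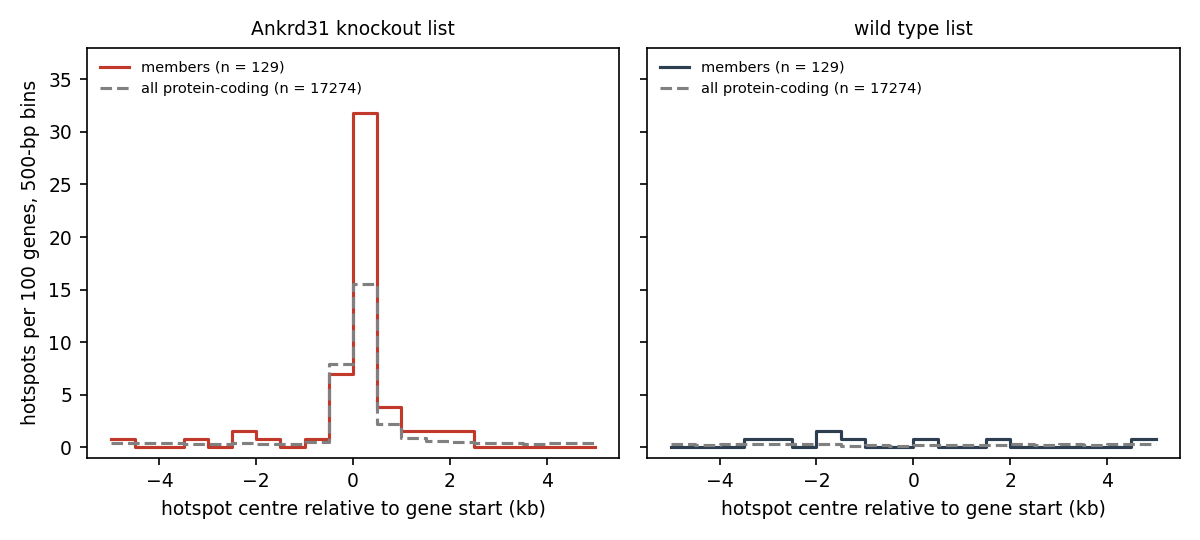
Number of hotspots per 100 genes in bins of 500 bp around the gene start, for the 129 members of known strand (solid) and all 17274 protein-coding genes of known strand (dashed), in the Ankrd31 knockout list (left) and the wild type list (right). In the knockout list the bin from 0 to 500 bp downstream of the start held 41 hotspots of members, while in the wild type list no bin around a member start held more than 2.

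The promoters of the members are shown because most knockout hotspots at member ends lie at or beside them and because most of them are rich in CpG. Each sequence runs from 250 bases before to 50 bases after a RefSeq transcription start, 5′ to 3′ on the strand of the gene, with every CG in capitals, as taken from RefSeq for GRCm38.p6. The first 7 belong, in each family, to the member with the strongest knockout hotspot at a gene start among those with a promoter that could be printed. They lie at chrX:13280772-13281071 (plus strand), chr2:158794557-158794856 (plus), chr17:80207256-80207555 (minus), chrX:134600929-134601228 (plus), chr10:75517792-75518091 (plus), chr19:5295406-5295705 (minus) and chrX:20617253-20617552 (plus).
Ddx3x: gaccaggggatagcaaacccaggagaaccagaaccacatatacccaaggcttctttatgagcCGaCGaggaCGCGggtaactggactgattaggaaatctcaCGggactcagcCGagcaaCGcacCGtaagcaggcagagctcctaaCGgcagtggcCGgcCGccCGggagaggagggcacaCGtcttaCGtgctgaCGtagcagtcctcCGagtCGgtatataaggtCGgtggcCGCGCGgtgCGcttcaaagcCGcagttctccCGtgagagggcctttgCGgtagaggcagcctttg
Dhx35: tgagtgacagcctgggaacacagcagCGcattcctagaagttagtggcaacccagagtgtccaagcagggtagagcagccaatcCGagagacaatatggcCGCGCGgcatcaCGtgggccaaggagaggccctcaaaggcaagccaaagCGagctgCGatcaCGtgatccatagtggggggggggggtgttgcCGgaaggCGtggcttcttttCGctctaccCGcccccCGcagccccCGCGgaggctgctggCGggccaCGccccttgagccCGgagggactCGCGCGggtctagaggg
Srsf7: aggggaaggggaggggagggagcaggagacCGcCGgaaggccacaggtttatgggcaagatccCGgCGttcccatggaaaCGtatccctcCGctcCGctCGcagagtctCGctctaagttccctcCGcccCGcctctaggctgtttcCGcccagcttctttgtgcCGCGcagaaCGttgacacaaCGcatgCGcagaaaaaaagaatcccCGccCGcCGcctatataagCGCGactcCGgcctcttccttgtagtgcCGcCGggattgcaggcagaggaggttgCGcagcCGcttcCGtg
Hnrnph2: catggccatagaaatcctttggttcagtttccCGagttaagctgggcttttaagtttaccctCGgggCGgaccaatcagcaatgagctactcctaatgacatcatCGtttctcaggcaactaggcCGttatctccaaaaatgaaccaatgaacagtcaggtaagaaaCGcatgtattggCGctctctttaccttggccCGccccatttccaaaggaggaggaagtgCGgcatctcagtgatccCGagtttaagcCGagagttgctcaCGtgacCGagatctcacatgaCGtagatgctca
Snrpd3: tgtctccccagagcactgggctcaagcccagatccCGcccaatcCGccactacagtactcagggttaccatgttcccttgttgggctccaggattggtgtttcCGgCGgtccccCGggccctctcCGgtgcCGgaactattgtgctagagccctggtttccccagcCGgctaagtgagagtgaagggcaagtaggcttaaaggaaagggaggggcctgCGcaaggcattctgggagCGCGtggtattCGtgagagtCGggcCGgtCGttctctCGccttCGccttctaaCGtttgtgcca
Sf3b2: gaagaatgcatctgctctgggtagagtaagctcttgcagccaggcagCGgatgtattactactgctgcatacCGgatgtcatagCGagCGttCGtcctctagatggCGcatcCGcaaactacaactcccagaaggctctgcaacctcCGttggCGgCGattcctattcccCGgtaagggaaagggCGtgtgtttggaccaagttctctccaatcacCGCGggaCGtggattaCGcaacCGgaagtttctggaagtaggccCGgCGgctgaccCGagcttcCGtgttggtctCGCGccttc
Rbm10: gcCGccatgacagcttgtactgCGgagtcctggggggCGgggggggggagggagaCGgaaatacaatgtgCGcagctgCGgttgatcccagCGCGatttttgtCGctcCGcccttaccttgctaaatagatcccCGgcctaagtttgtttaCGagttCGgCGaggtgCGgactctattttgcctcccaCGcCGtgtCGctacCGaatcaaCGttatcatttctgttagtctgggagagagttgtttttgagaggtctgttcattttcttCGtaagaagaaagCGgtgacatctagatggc

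From the starts of these promoters to the centre of the knockout hotspot the distance was 449 bp for Ddx3x, 11 bp for Dhx35, 286 bp for Srsf7, 248 bp for Hnrnph2, 510 bp for Snrpd3, 246 bp for Sf3b2 and 17 bp for Rbm10. A RefSeq start can differ from the annotated end of the gene, from which the centre of the Ddx3x hotspot lay 975 bp away. Their CG dinucleotides numbered 14 for Hnrnph2, 18 for Snrpd3, 22 each for Dhx35 and Rbm10, 23 for Sf3b2, 25 for Ddx3x and 28 for Srsf7. The hotspot at the Hnrnph2 promoter, which has the fewest of these 7, was the strongest at an end of any member. For contrast, promoters are also given for 3 of the members with restricted expression and no hotspot at an end in either list. Rbmxl2 is the germ cell homologue of Rbmx, Rbm24 is a splicing regulator of muscle, and Rbm47 is a cofactor of cytidine deamination in apolipoprotein B messenger RNA. Their promoters lie at chr7:107209195-107209494 (plus), chr13:46418050-46418349 (plus) and chr5:66151905-66152204 (minus).
Rbmxl2: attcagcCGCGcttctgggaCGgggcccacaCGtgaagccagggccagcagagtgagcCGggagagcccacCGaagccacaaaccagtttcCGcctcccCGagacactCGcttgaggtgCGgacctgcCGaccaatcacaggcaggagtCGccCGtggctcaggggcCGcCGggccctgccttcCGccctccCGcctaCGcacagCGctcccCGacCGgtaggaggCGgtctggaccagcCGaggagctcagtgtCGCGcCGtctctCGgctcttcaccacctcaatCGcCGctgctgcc
Rbm24: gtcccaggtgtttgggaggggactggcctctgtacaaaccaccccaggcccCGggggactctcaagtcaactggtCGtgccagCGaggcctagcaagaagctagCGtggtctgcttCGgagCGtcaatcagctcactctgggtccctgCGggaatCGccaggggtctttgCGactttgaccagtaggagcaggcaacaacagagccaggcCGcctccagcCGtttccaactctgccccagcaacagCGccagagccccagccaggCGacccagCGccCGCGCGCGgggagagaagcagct
Rbm47: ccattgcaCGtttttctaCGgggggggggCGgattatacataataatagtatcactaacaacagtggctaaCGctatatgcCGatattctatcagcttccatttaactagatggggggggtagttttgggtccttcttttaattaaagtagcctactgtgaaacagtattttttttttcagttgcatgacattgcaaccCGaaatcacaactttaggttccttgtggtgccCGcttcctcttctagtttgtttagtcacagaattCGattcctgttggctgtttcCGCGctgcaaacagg

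The Rbmxl2 promoter holds 29 CG dinucleotides, more than any of the 7 promoters with a hotspot, while Rbm24 holds 18 and Rbm47 holds 10. CpG content was measured as the observed over the expected number of CG in the 300 bases, where a value near 1 means no depletion. Its median was 0.905 in the 56 members with a knockout hotspot at the start and 0.845 in the 73 without. Over all genes it was 0.802 in the 4524 with a knockout hotspot at the start and 0.411 in the 12750 without. Of the 129 members 115 (89.1%) had a value over 0.6, as did 48.9% of all genes.

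Split by CpG content, the members had shares within counting error of those of all genes. Of the members with a value over 0.6, 53 of 115 had a knockout hotspot at the start (46.1%, 36.8 to 55.6), and of all such genes 43.1% had it (42.1 to 44.2). Of the members with a value up to 0.6, 3 of 14 had it (21.4%, 4.66 to 50.8), and of all such genes 9.94% (9.32 to 10.6). These 3 were Rbm25, whose 300 bases hold no CG, Rbm41 (0.343) and Dhx57 (0.588). The Rbm25 hotspot was centred 331 bp from the annotated gene end but 3171 bp from the nearest RefSeq start, so those 300 bases are not at it. The Dhx57 hotspot was centred 252 bp from the start of Dhx57 and 12 bp from the RefSeq start of the neighbouring gene Morn2. Each interval of the members held the share of all genes of the same CpG class. By family the median was 1.01 in Hnrnp, 0.961 in Ddx, 0.952 in Srsf, 0.896 in Sf3, 0.873 in Snrp, 0.810 in Dhx and 0.783 in Rbm.

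Both strands of the promoters were also searched for 3 short motifs. The core of the TATA box, TATAAA, was found in 12.4% of member promoters and in 13.4% of all promoters. The motif CCAAT was found in 49.6% of member promoters against 39.6% of all. The GC box motif GGGCGG was found in 60.5% of member promoters against 46.9% of all. Among the 56 members with a knockout hotspot at the start the TATA motif was found in 14.3%, the CCAAT motif in 48.2% and the GC box in 66.1%. Over all genes with such a hotspot the same motifs were found in 5.92%, 41.0% and 72.9%. A match shows that the letters occur in the window and nothing about a factor.

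**Figure D3:**
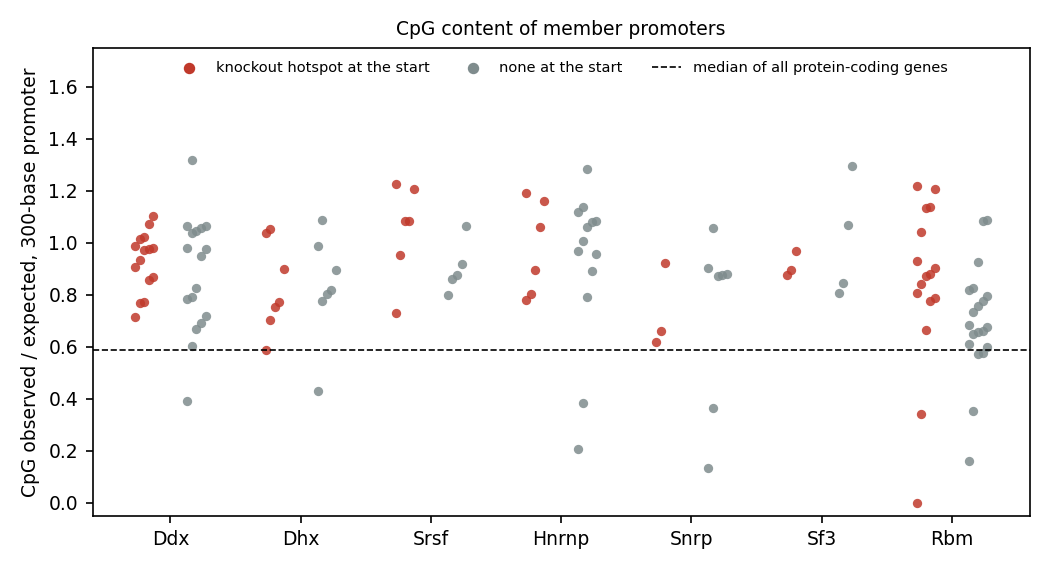
CpG observed over expected in the 300-base promoter of each of the 129 members with a promoter in the table, by family. Red points have a knockout hotspot at the gene start (56 members) and grey points have none (73), and the dashed line is the median of all 17274 protein-coding genes, 0.586; most points of both colours lie above it.

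The 66 knockout hotspots at member ends, 1 for each member but 2 for Sf3b2, had a median strength of 122.5 (24 to 860). The hotspots at ends of all protein-coding genes had a median of 97. The 7 on X had a median of 475 (151 to 860), against 284 for those at all X genes, and the 59 on autosomes one of 101, against 93. Of the 66, 35 (53.0%) were above the median of the knockout list, as were 44.7% of those at all gene ends. Strength varied between families, and no test of this was made. On autosomes 5 of 24 helicase hotspots (20.8%) exceeded the median of the knockout list, against 23 of 35 in the other 5 families (65.7%) and 41.0% at all autosomal gene ends. The median was 58 for the autosomal helicases and 131 for the other 5 families, and the ranges overlapped (24 to 216 for helicases and 44 to 346 for the others).

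**Figure D4:**
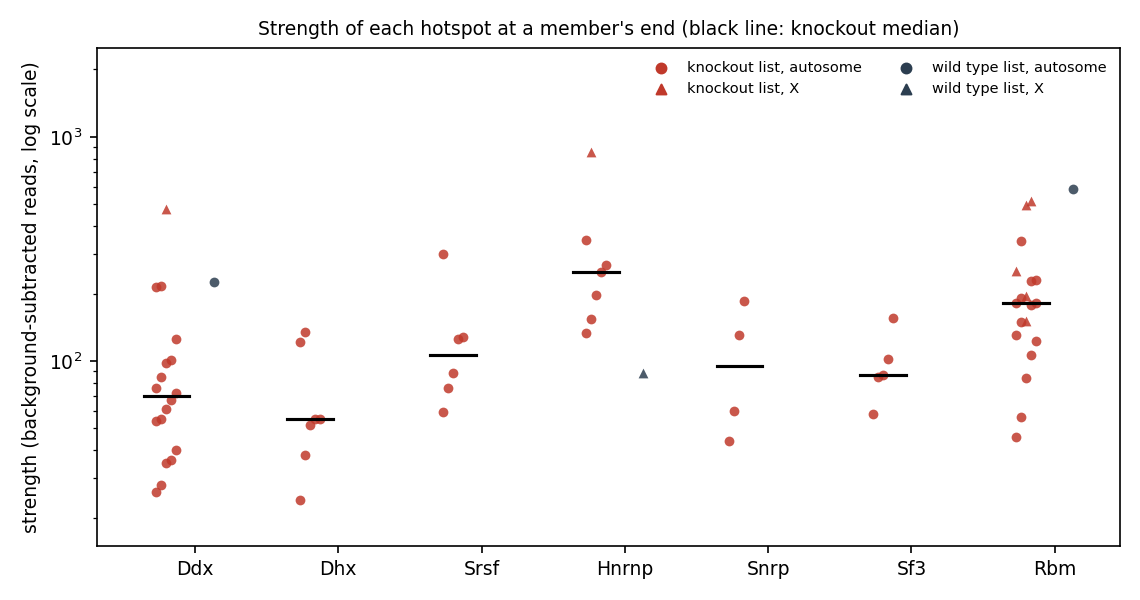
Strength (reads minus background, log axis) of each hotspot at a member's end, by family, in the Ankrd31 knockout list (red, 66 hotspots) and the wild type list (dark blue, 3 hotspots). Triangles are X and circles autosomes, and black lines are medians of the knockout list; all 7 Hnrnp hotspots of the knockout list were at 134 or more, while 4 of 18 Ddx hotspots were above 105.

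The Ddx genes had a median of 69.5 (26 to 475) in the knockout list. Ddx3x, an X-linked helicase of translation, was the strongest of them, with a strength of 475 (520 reads, exact Poisson interval 476 to 567, background 45) at chrX:13280225-13282717. Ddx25 followed with 216 and Ddx5, a coactivator and splicing helicase, with 213 in the knockout list. No hotspot was listed at the ends of these 3 genes in the wild type. The lowest values were those of Ddx18 (28) and Ddx24 (26), both of ribosome assembly. The Dhx genes had a median of 55 (24 to 135). Dhx35, found in catalytic spliceosomes, had 135 (150 reads, 127 to 176), and Dhx15, which takes spent spliceosomes apart, had 122. Next came Dhx30, a helicase of mitochondrial ribosomes, and Dhx40, each with 55. Dhx33 was the lowest of all members, with 24 (31 reads, 21.1 to 44.0). None of the 7 Dhx genes had a hotspot at an end in the wild type list.

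Helicases of ribosome assembly had the lowest median, 28, of the 7 groups formed by function. Of the 15 helicases of ribosome assembly 5 had a knockout hotspot at an end (33.3%, 11.8 to 61.6, beside 27.1% of all genes), with 24 (Dhx33), 26 (Ddx24), 28 (Ddx18), 36 (Ddx52) and 61 (Ddx54). Each of them was below the median of the knockout list. Of the 7 spliceosomal ATPases 4 had it (57.1%, 18.4 to 90.1), with 122 for Dhx15, 98 for Ddx39b, 55 for Ddx46 and 38 for Dhx8. Ddx39b also exports messenger RNA, Ddx46 acts when the branch point is selected and Dhx8 releases the finished message. Ddx23, Dhx16 and Dhx38, which act at activation of the spliceosome and around its catalytic steps, had none. Of the 7 helicases of export and turnover 3 had it (42.9%, 9.90 to 81.6), namely Ddx3x, Ddx39b and Ddx39a, the last with 76. Of the 3 helicases of innate immunity Ddx58, the sensor RIG-I, had a hotspot of strength 67, and Dhx58 and Ddx60 had none. The intervals of these groups held the 27.1% of all genes. Ddx46 alone among these groups also had a hotspot at an end in the wild type list.

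Of the 6 members named for germ cell roles 4 had a knockout hotspot at the start and none had a wild type hotspot there. Their share at either end, 66.7% (22.3 to 95.7), had an interval that held the 27.1% of all genes. Rbm46, which male germ cells need for meiosis, had a strength of 230, and Ddx25 had 216. Ddx4 had 125 (137 reads, 115 to 162) and Ddx43, a testis helicase, had 85. Rbm44, a protein of the bridges between germ cells, and Rbmxl2 had no hotspot at an end. The 8 tissue-restricted members gave 2 with a knockout hotspot at an end, both at the start (25%, 3.19 to 65.1, beside the same 27.1%): Rbm11, a splicing regulator of brain and testis, at 343 and Rbm38, a target of p53, at 228. Groups of so few genes show single values and no rate.

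The 6 Srsf hotspots had a median of 106.5 (59 to 300) in the knockout list. Srsf7 was the strongest, with 300 (327 reads, 293 to 364) at chr17:80205922-80208116, followed by Srsf4 with 128 and Srsf2 with 125. Srsf6 (88), Srsf3 (76) and Srsf12 (59) were weaker. These genes encode SR proteins, which bind exonic enhancers. Srsf1, Srsf5, Srsf9, Srsf10 and Srsf11 had no hotspot at an end, and no Srsf gene had a wild type hotspot at an end or inside. Of all genes 1.99% had a wild type hotspot at an end and 19.8% inside, and the interval for 0 of 11 reaches 28.5%. The median length was 7290 bp for Srsf genes and 17329 bp for all genes.

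The Snrp and Sf3 genes, which build the U1 and U2 particles and the Sm ring around their RNA, had knockout hotspots from 44 to 185 in strength at their ends. Snrpd3, an Sm protein, had 185 (198 reads, 171 to 228), and Snrpd1, another Sm protein, had 131. Snrpa, which binds U1 RNA, had 60 and Snrpf, of the Sm ring, 44. Sf3b5, a small subunit of the complex at the branch point, had 155 (160 reads, 136 to 187). Sf3b2 had 102 at its start. A hotspot of 85 also fell within 1 kb of its far end, but its centre lay 26 bp from the RefSeq start of the neighbouring gene Pacs1 and 840 bp from the end of Sf3b2. Sf3b1, the largest subunit and a gene often mutated in myelodysplasia, had 87, and Sf3b6, which contacts the branch point, 58. The 3 Sf3a genes had none, and neither did Sf3b3 and Sf3b4. Without the tissue-restricted Snrpn, the 20 genes of this core had 8 members with a knockout hotspot at an end (40%, 19.1 to 63.9), and this interval holds the 27.1% of all genes. None of the 20 had a hotspot there in the wild type list, beside 1.99% of all genes.

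The 7 Hnrnp hotspots were all above the median of the knockout list, with a median of 250 (134 to 860). On X, Hnrnph2, which binds runs of G, had 860 (887 reads, 830 to 947). On autosomes the family had a median of 224. Hnrnpr led with 346 (361 reads, 325 to 400), then Hnrnpd, which binds AU-rich messages, with 269, and its relative Hnrnpdl with 250. Hnrnpa3 (198), Hnrnph3 (154) and Hnrnpul2 (134) made up the rest. Among the 14 genes without a hotspot at an end were the abundant Hnrnpa1, Hnrnpa2b1 and Hnrnpc.

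The 19 Rbm hotspots had a median of 181 (46 to 519), and 16 of them (84.2%) exceeded the median of the knockout list. The strongest were on X: Rbm10, an exon repressor, with 519 (542 reads, 497 to 590), and Rbmx, the X-linked hnRNP G, with 495 (528 reads, 484 to 575). Rbm3, induced by cold, had 253, Rbm41, of the minor spliceosome, 196, and Rbmx2 151. On autosomes the median was 163.5, and Rbm11, with 343 (373 reads, 336 to 413), was the strongest. Rbmxl1, a retrogene of Rbmx, had 181, and Rbm7, of nuclear RNA decay, had the lowest value, 46. None of these genes but Rbm26 had a hotspot at an end in the wild type list.

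Hnrnph2, Ddx46 and Rbm26 were the 3 members whose ends carried a wild type hotspot, all shared with the knockout, and they differed in direction. Strengths were set on a common scale by dividing by the median of the autosomal shared hotspots of each list, 151 in the knockout and 182 in the wild type. At the start of Hnrnph2 the strength was 860 (887 reads) in the knockout and 88 (108 reads) in the wild type, 11.8-fold higher on the common scale (log2 of knockout over wild type 3.56, counting bounds 3.13 to 4.02). At the far end of Ddx46 it was 55 (67 reads) in the knockout and 225 (232 reads) in the wild type (log2 -1.76, -2.42 to -1.15). At the far end of Rbm26, a protein of nuclear RNA decay, it was 178 (198 reads) in the knockout and 585 (612 reads) in the wild type (log2 -1.45, -1.80 to -1.10). The hotspot on a start was thus stronger in the knockout and those on far ends weaker, with 3 hotspots in all. Hnrnph2 is on X while Ddx46 and Rbm26 are on autosomes, so the kind of end and the chromosome cannot be told apart here. Bounds combine the exact 95% Poisson intervals of the reads of both lists and cover counting error only.

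Some hotspots at a member's end lay at the end of a neighbouring gene too, and the lists do not say to which gene such a hotspot belongs. Of the 66 pairs of member and hotspot 20 (30.3%) had another protein-coding gene ending within 1 kb of the same hotspot, against 22.9% of 5980 such pairs over all genes. Among them were Hnrnph2 with Gla, Rbm10 with Ndufb11, Srsf7 with Gemin6, Ddx25 with Pus3, Ddx5 with Cep95, Srsf2 with Mfsd11 and Snrpd3 with Gucd1. Without such hotspots 46 members (30.9%) kept a knockout hotspot at an end, beside 21.1% of all genes, and 2 members (1.34%) a wild type hotspot, beside 1.73%. The hotspots were wide, with a median of 1840 bp at member ends and 1750 bp at all gene ends in the knockout list, so a centre does not place a break to the base.

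Few members lay close to the 1 kb limit. The last knockout hotspots inside it were those of Hnrnpdl (997 bp from the end, strength 250), Ddx3x (975 bp, 475) and the far end of Sf3b2 (840 bp, 85). The nearest outside it were those of Hnrnpul1 (1034 bp, 120), Ddx5 (1087 bp, 84), Dhx33 (1087 bp, 31), Ddx52 (1270 bp, 84) and Srsf1 (1445 bp, 95). The nearest outside it in the wild type list were Rbm46 (1182 bp, 199), Sf3b3 (1345 bp, 47) and Rbm11 (1492 bp, 129). At 2 kb 71 members (47.7%) had a knockout hotspot, beside 30.5% of all genes. In the wild type list 12 members (8.05%) had a hotspot within 2 kb, beside 3.99% of all genes. The wild type share of the members was thus close to that of all genes at 1 kb (2.01% beside 1.99%) and higher at 2 kb. No interval was computed for the shares at 2 kb.

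Inside the gene bodies 75 members had a knockout hotspot (50.3%, beside 34.8% of all genes) and 26 a wild type hotspot (17.4%, beside 19.8%). Away from both ends by more than 1 kb the counts were close. Of the members 26 members had a knockout hotspot (17.4%, beside 21.3% of all genes) and 24 a wild type hotspot (16.1%, beside 18.9%). These held 43 hotspots of the knockout list, 8.15 per Mb of gene body (exact Poisson interval 5.90 to 11.0), and 31 of the wild type list, 5.87 per Mb (3.99 to 8.34). All genes had 7.79 per Mb in the knockout list and 6.59 in the wild type list. Of the 149 members 62 had no hotspot of either list at an end or inside, beside 12298 of all 21631 protein-coding genes.

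Families differed in the density of these inner hotspots, with wide intervals. Hnrnp genes had 9 knockout hotspots, 29.2 per Mb (13.3 to 55.3), and 5 wild type hotspots, 16.2 per Mb (5.26 to 37.8). Among the 9, those of Hnrnpl, Hnrnpf and Hnrnpul1 were centred within 1 kb of another RefSeq start of the same gene. Ddx genes had 5.16 per Mb (1.68 to 12.0) and Dhx genes 5.87 per Mb (1.21 to 17.2) in both lists. Rbm genes had 7.46 per Mb in the knockout list and 4.85 per Mb in the wild type list, and Snrp genes 9.13 per Mb in the knockout list and 7.31 per Mb in the wild type list. Srsf genes had 1 inner hotspot in the knockout list and Sf3 genes 1 in the wild type list. Long genes held several inner hotspots. Rbms3, a gene of 1057168 bp for a single-strand binding protein, had 7 in the knockout list and 3 in the wild type list. Snrpn, an imprinted gene of 467683 bp for a brain Sm protein, had 4 in the knockout list and 3 in the wild type list. Rbm20, which directs splicing of titin in heart, had 5 in the knockout list and 3 in the wild type list.

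Of the 43 inner hotspots of the knockout list 18 were knockout-only and 25 shared. Of the 18, 8 were centred within 1 kb of a RefSeq transcription start, and none of the 25 shared were. For all genes, 31.3% of the inner knockout-only hotspots and 1.32% of the inner shared ones were so placed. Of the 8, 7 were at another start of the same gene: Rbm48 (353), Hnrnpl (182), Hnrnpul1 (120), Srsf1 (95), Ddx50 (88), Dhx32 (66) and Hnrnpf (53). The last, in Rbm20 (49), was at the start of Gm16299. Counting such starts as ends, a choice made after seeing the data, gave 72 members with a knockout hotspot (48.3%, beside 29.7% of all genes under the same rule), and Hnrnp then had 10 of 21. The 6 wild-type-only inner hotspots were in Rbm46 (199), Rbm20 (150), Ddx46 (124), Sf3b1 (109), Rbm6 (72) and Dhx29 (61), and none was within 1 kb of a RefSeq start.

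At the 25 shared inner hotspots the knockout was mostly the weaker. The median log2 of knockout over wild type was -0.72, with 19 below 0 and 6 above. Over all 5402 shared inner hotspots of protein-coding genes it was -0.32, with 3362 below 0 and 2040 above, so the knockout was mostly the weaker there too. The interval of the member median, -1.25 to -0.15, held the -0.32 of all genes, so the medians do not separate members from all genes. In the members 10 of 25 (40%) were more than 2-fold weaker in the knockout, against 25.2% over all genes. At 2 of 25 (8%) the knockout was more than 2-fold stronger, against 7.35% over all genes. No interval was computed for these shares, so no difference from all genes can be read from them. The median of all 11487 shared hotspots was -0.01.

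**Figure D5:**
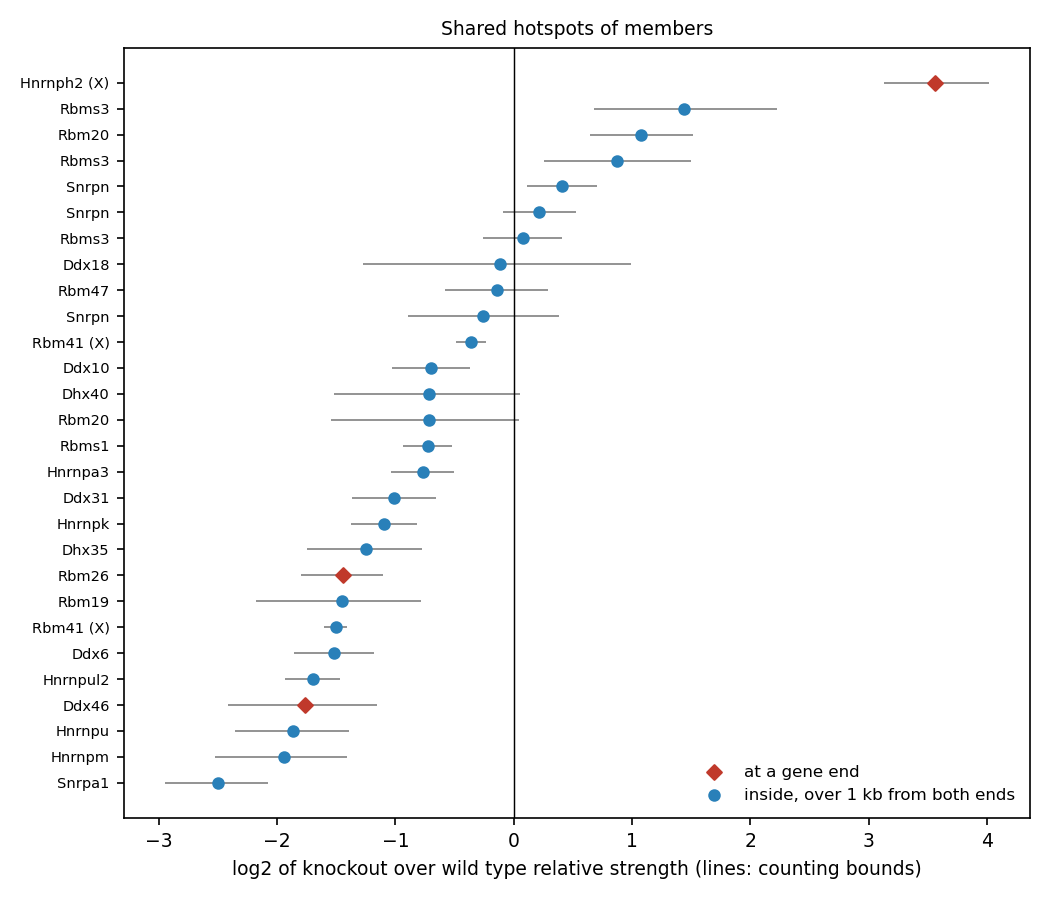
Log2 of knockout over wild type relative strength at each of the 28 shared hotspots of members, sorted from the highest (Hnrnph2, 3.56) to the lowest (Snrpa1, -2.50). Red diamonds are hotspots at a gene end and blue circles hotspots inside a gene over 1 kb from both ends, and lines are counting bounds from the reads of both lists.

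All 5 shared inner hotspots of Hnrnp genes were weaker in the knockout, with a median log2 of -1.70. Over all protein-coding genes 3362 of the 5402 shared inner hotspots were weaker in the knockout. Hnrnpm, a splicing repressor, had a strength of 70 in the knockout and 325 in the wild type (log2 -1.95, -2.53 to -1.41). Hnrnpu, which binds nuclear scaffold, had 90 in the knockout and 395 in the wild type (log2 -1.86, -2.36 to -1.39). Hnrnpul2, its relative, had 376 in the knockout and 1472 in the wild type (log2 -1.70, -1.93 to -1.47). The bounds of these 3 lay below -1. Hnrnpk, a poly(C)-binding protein, had 291 in the knockout and 750 in the wild type, and Hnrnpa3 had 350 in the knockout and 720 in the wild type. The hotspots at ends of Hnrnpa3 (198) and Hnrnpul2 (134) were in the knockout list and had no partner in the wild type, so an end of each gene carried a knockout-only hotspot while its shared inner hotspot was weaker in the knockout.

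The lowest ratio of any member was inside Snrpa1, a protein of the U2 particle, with 101 in the knockout and 688 in the wild type, 5.65-fold lower (log2 -2.50, -2.95 to -2.08). The centre of this hotspot lay 1678 bp from the nearest RefSeq start in the knockout list. Snrpn was higher in the knockout at its strongest site, with 405 in the knockout and 367 in the wild type (log2 0.41, 0.12 to 0.71). A further shared hotspot of Snrpn had 354 in the knockout and 367 in the wild type. The weakest had 75 in the knockout against 108 in the wild type, and the bounds of both span 0. Helicases were lower or had bounds that span 0. Ddx6, of messenger RNA decay, had 179 in the knockout and 618 in the wild type (log2 -1.52, -1.86 to -1.18). Ddx31 had 182 in the knockout and 442 in the wild type, and Ddx10, the longest Ddx gene, 235 in the knockout and 460 in the wild type. Dhx35 had 98 in the knockout and 281 in the wild type (log2 -1.25, -1.75 to -0.77), beside its knockout-only hotspot of 135 at the start.

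The 10 shared inner hotspots of Rbm genes ranged in log2 from -1.51 to 1.44. In Rbms3 a hotspot had 99 in the knockout and 44 in the wild type (log2 1.44, 0.68 to 2.23), and another had 114 in the knockout and 75 in the wild type (log2 0.87, 0.25 to 1.5). A hotspot of Rbm20 had 247 in the knockout and 141 in the wild type (log2 1.08, 0.64 to 1.52). The other shared hotspot of Rbm20 had 51 in the knockout and 101 in the wild type (log2 -0.72, -1.54 to 0.05). Rbm19, of ribosome assembly, had 53 in the knockout and 175 in the wild type (log2 -1.45, -2.18 to -0.79). Rbms1, a relative of Rbms3, had 583 in the knockout and 1162 in the wild type (log2 -0.73, -0.94 to -0.52). On X a hotspot of Rbm41 had 2036 in the knockout and 6969 in the wild type (log2 -1.51). Another had 1688 in the knockout against 2610 in the wild type (log2 -0.36). Rbm41 therefore had weaker inner hotspots in the knockout beside a knockout-only hotspot of 196 at its start. In all, 9 members had both a knockout hotspot at an end and an inner wild type hotspot. The share of all genes with both was not counted, so this number cannot be set against it.

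Genes of the same pathways outside the 7 families were counted at their ends in the same way, beside 27.1% of all genes in the knockout list. Of 53 other spliceosome genes, such as the Prpf and Lsm genes, 20 had a knockout hotspot at an end (37.7%, 24.8 to 52.1), with a median strength of 87. Of 39 other splicing regulators, such as Ptbp, Mbnl and Clk genes, 15 had it (38.5%, 23.4 to 55.4), with a median of 105. Of 16 other RNA helicases, such as the Eif4a genes and Mov10l1, 8 had it (50%, 24.7 to 75.3), with a median of 77. No gene of these 3 lists had a hotspot at an end in the wild type, beside 1.99% of all genes. The intervals for 0 genes reach 6.72%, 9.03% and 20.6%, so the wild type counts do not separate these lists from all genes. Each of the 3 knockout intervals held the 27.1% of all genes and overlapped that of the members, 35.5 to 52.0, so in the knockout list they separate from neither.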

How the data were processed

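DMC1-SSDS of whole testis was analysed from 1 deposited hotspot list for each genotype; the sources used here do not say how the 2 samples of a genotype were combined. Per the submitters' processing notes the tools were Bowtie2, BWA, CASAVA and MACS2 and the build mm10, with no version or role. Per the file headers, the deposited read count of a hotspot is a whole number, and the deposited background signal was subtracted from it to give the deposited strength, a signal value; strength equalled reads minus background, within 1 read, in 100% of hotspots of both lists. The deposited percent strength and the deposited rank score were not used in tests. The names of the lists say that Y was left out.

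Genes came from a RefSeq table of GRCm38.p6, whose chromosomes are those of mm10. Whether list positions count from 0 or 1 is not stated. Strand came from the RefSeq promoter table, which matched 129 of the 149 members and was not used for the other 20. Hotspots were paired where they overlapped by at least 1 bp. With 1 list a genotype no test across samples was possible; shares have exact Clopper-Pearson intervals and counts exact Poisson intervals at 95%, for counting error only. Depth is given as reads in hotspots, and total library depth was not used here. Gene assignment and pairing were checked on simulated data. Computation used Python 3.11.15 with pandas 2.3.3, numpy 2.4.6, scipy 1.17.1 and matplotlib 3.10.9.

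Members, gene lists and the rule for naming genes were chosen with earlier results of these data known. The rule took every member whose ends carry a wild type hotspot, the 3 strongest knockout hotspots at an end in each family, every member on X, the 10 strongest inner wild type hotspots, the 5 highest and 5 lowest shared ratios, the germ cell, innate immunity and spliceosomal ATPase lists and the longest gene of each family. Other genes named were chosen after their values were seen. Alternatives were other windows, the gene start only, stronger hotspots only, autosomes only, hotspots at no other gene, other overlaps and other scalings of strength.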

Additional observations from a re-analysis of the deposited data

How the results depend on the processing

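Of 72 values recomputed under alternatives, 62 stayed within 1.5 times the count, or within the interval of the median, given in the report. With the strongest 13480 knockout hotspots the members with a knockout hotspot at an end numbered 41 (27.5%, beside 16.0% of all genes), and those with a knockout-only hotspot 39. By family Ddx then had 7 of 36, Dhx 2 of 16 and Snrp 2 of 12, each a fall of more than 1.5-fold. Hnrnp kept 7 of 21, and Rbm had 16 of 44, Srsf 4 of 11 and Sf3 3 of 9. Among hotspots at or above the median strength of their list, 35 members (23.5%, beside 12.3% of all genes) had a knockout and 34 a knockout-only hotspot at an end. A wild type hotspot at an end was found in 12 members within 2 kb (8.05%, beside 3.99% of all genes). At the gene start only, 1 member had it, beside 0.747% of all genes of known strand. Inside and over 1 kb from both ends the knockout list had 43 hotspots in place of 98. The fall with strength follows from leaving out weak hotspots; for the other windows the cause was not tested. The median log2 ratio of shared inner hotspots was -0.99 with strength as deposited and -0.90 as a share of the summed strength. No paired analysis was possible because each genotype has 1 list, and no replicate could be left out for the same reason. Depth limits the weak sites: 59 of 66 knockout hotspots at member ends exceeded the 5th percentile of the wild type list (43), and absence from a list does not show absence of breaks.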
